A study of Homo sapiens with 6 samples.

Results

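Secreted ribonucleases and their inhibitor were followed through RNA sequencing of THP-1 macrophages exposed to ox-LDL. THP-1 is a cell line from a human monocytic leukaemia, and ox-LDL is oxidised low-density lipoprotein, which macrophages engulf as they turn into foam cells. The 8 genes were found by symbol among the 35009 genes of the deposited table, where each had 1 row. They are 6 genes of the RNase A family on chromosome 14 (RNASE1, RNASE6, RNASE2, RNASE3, ANG and RNASE4), the lysosomal RNASET2, and RNH1, the inhibitor of the family. They were chosen by their gene family and picked from results of these same libraries, with the difference between the 2 groups in view. The changes of the 8 genes between groups are therefore a description, and where a gene is said to have passed a test, this places it in the fit over all genes and is not independent evidence.

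The 2 groups of 3 libraries were ox-LDL macrophages with the genotype given as control and ox-LDL macrophages with MCT4 deficiency, titled siMCT4. MCT4 is the lactate exporter encoded by SLC16A3. All 6 libraries came from ox-LDL-exposed cells of this line, and no library without ox-LDL was analysed here. Whether control cells were given a non-targeting siRNA, and whether each library is a culture of its own, the labels do not say. The p-values thus reflect the spread among these 6 samples alone, which may be technical.

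RNases of the A family are small secreted enzymes that cut single-stranded RNA, and their genes lie side by side on chromosome 14. Some are released into blood and tissue fluid, others are stored in granules of white blood cells and act against microbes or viruses, and angiogenin (ANG) also stimulates blood vessel growth and cuts transfer RNA in stressed cells. RNH1 is a leucine-rich repeat protein of the cytosol that binds these enzymes very tightly and keeps them from cutting the RNA of the cell. Macrophages take up RNA with dead cells and microbes and degrade it in lysosomes, where RNASET2, an acid-active enzyme of another family, releases fragments that Toll-like receptors can sense.

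The bases upstream of the family's transcription starts are shown for the short motifs they hold. They are RefSeq sequences on GRCh38.p14, the 250 bases before a start, printed along the gene's strand, and all 8 genes matched, with 13 windows between them. RNASE1 is shown by the window at chr14:20802845-20803094 (minus strand), RNASE6 by chr14:20781018-20781267 (plus) and ANG by chr14:20683927-20684176 (plus). Capitals mark the AP-1 site (TGANTCA) and the core of the site bound by PU.1 (GAGGAA), a transcription factor of myeloid cells, each searched on both strands.
RNASE1: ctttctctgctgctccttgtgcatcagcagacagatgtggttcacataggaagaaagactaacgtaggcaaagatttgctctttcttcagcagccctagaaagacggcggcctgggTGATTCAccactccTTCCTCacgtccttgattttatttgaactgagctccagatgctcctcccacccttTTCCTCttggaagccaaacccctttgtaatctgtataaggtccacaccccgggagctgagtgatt
RNASE6: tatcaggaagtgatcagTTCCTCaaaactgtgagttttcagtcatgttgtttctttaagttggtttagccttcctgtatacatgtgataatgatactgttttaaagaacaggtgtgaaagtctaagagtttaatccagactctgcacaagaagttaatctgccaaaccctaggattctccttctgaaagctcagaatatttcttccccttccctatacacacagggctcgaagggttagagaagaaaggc
ANG: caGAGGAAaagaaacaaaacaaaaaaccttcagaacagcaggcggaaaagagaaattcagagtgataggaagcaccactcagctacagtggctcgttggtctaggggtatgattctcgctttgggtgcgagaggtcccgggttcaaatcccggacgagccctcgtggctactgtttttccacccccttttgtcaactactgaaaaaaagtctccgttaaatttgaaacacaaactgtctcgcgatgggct

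RNASE2 (chr14:20955237-20955486, plus strand) and RNASE3 (chr14:20891135-20891384, plus strand) are shown because their upstream bases are nearly the same. They held none of the motifs searched, so no letter is in capitals.
RNASE2: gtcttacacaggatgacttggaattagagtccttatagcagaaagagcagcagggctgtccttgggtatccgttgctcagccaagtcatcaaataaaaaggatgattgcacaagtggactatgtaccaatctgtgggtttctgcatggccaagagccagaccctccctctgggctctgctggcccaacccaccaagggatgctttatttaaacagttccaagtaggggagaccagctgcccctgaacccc
RNASE3: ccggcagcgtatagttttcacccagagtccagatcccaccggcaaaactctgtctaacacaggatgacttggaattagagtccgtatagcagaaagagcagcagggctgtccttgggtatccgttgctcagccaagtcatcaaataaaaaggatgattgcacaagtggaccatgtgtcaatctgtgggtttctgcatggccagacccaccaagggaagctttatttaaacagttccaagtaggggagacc

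RNASE1 had the AP-1 match TGATTCA from base -134 to -128, counted back from the transcription start, and 2 PU.1 core matches, from -120 to -115 and from -65 to -60. A second RNASE1 window had no match. RNASE6 had 1 PU.1 core match, from -233 to -228, and ANG had 1, from -248 to -243. ANG and RNASE4 share 2 windows, and 1 of these had a PU.1 core match, from -176 to -171. The windows of RNASE2, RNASE3, RNASET2 and RNH1 had none. Over all 34788 promoter windows of this length 23.6% held the PU.1 core and 6.59% the AP-1 site, and among the 8 genes the AP-1 site occurred in RNASE1 alone. The interferon-stimulated response element (3.02% of all windows), the STAT site (TTCNNNGAA, 6.57%), the NF-kB site (9.95%) and the TATA box (TATAAA, 10.8%) matched no window of the 8 genes. RNASE2 and RNASE3 were 96.5% identical over 199 aligned upstream bases. These matches describe the letters only, and binding was not measured.

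Total counts ran from 61880619 to 69181938 per library. SLC16A3 had counts of 7708, 6428 and 6848 in the controls, against 691, 768 and 949 in the siMCT4 libraries, a log2 change of -3.20 ± 0.102 (SE; adjusted p = 1.12e-06, edgeR quasi-likelihood test with Benjamini-Hochberg adjustment). With a correction for GC content, which is 65.6% for SLC16A3, the log2 change was -2.42, and it passed in all 17 alternatives. The exact two-sided permutation test of these 6 values gave p = 0.1, the smallest that 3 against 3 allows. The siMCT4 libraries differed among themselves. The log2 ratio to the mean of the controls was taken over 339 GC-rich genes (GC content of at least 64%, log2 CPM above 2). Its median was 0.06, -0.03 and -0.02 in the controls. In siMCT4 it was -1.04 in library 1, -1.16 in library 2 and -0.19 in library 3. On this measure library 3 lay near the controls, and libraries 1 and 2 lay apart. Whether library 3 or libraries 1 and 2 are the exception was not tested. CPM is counts per 1000000 counts with trimmed-mean (TMM) scaling. All 8 macrophage markers were above 1 CPM, with a summed level of 4060 to 4120 CPM in controls and 3100 to 3240 CPM in siMCT4. Of these 8, 5 fell at an adjusted p under 0.05 (edgeR), against 20.8% of all tested genes. Their log2 changes ran from -0.17 (ITGAM) to -1.99 (CD14). The T cell list had no gene in the table. The B cell list summed to 1.19 to 1.69 CPM in controls and 3.16 to 4.10 CPM in siMCT4. The fibroblast list summed to 4.43 to 6.40 CPM in controls and 6.25 to 32.5 CPM in siMCT4. Most of the upper siMCT4 sums was COL1A2, named after its values were seen. It had 1892 counts in siMCT4 library 1, 1782 in library 2, and 0 in library 3 and every control. In bulk RNA, a change in the number of cells of a type and a change in RNA per cell cannot be told apart.

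The family did not move as a block. In siMCT4, RNASE1, RNASE6, ANG and RNASE4 were higher, RNASET2 and RNH1 were lower, and RNASE2 and RNASE3 did not pass the test. All 8 genes passed the filter on low counts, and 6 of the 8 had an adjusted p under 0.05 in the fit over 19944 genes, 4 higher and 2 lower. In that fit 41.4% of all genes were called, 20.6% higher and 20.8% lower. CPM values of the 2 groups did not overlap for 7 of the 8 genes, and for 55% of all tested genes. The median log2 change was 0.19 over the 8 genes and -0.01 over all tested genes.

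**Figure D1:**
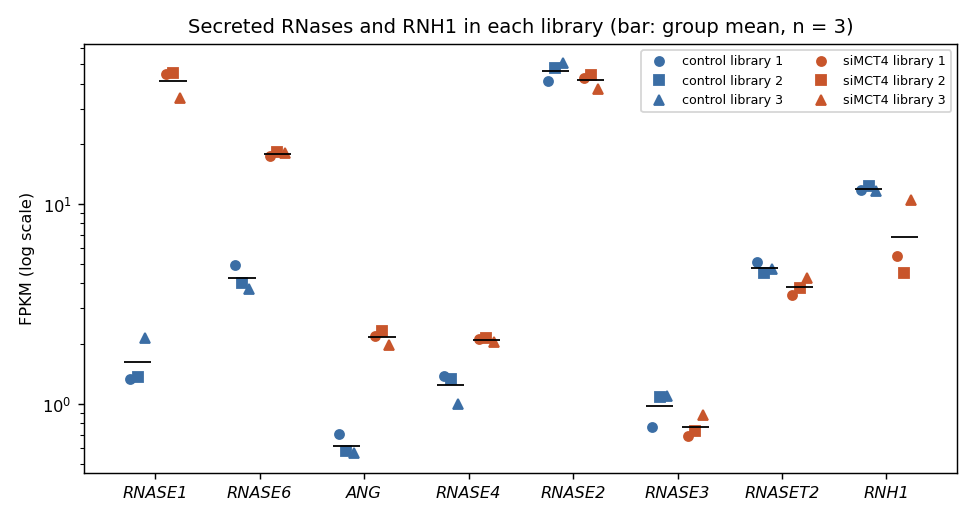
Deposited FPKM (log axis) of the 8 genes in each of the 6 libraries; points are libraries, blue for control and orange for siMCT4, and bars are group means (n = 3). RNASE1 moves from 1.34 to 2.13 in controls to 33.9 to 45.2 in siMCT4, and the RNH1 value of siMCT4 library 3 (10.5) lies near the control values.

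RNASE1 is the pancreatic-type ribonuclease that endothelial cells release into blood, where it degrades extracellular RNA. The gene (ENSG00000129538, GRCh38 chr14:20801228-20802855, minus strand) had counts of 110, 105 and 165 in the controls, against 3214, 3520 and 2702 in the siMCT4 libraries. The deposited FPKM, fragments per kilobase scaled to sequencing depth, was 1.34, 1.36 and 2.13 in controls and 44.9, 45.2 and 33.9 in siMCT4. Every siMCT4 library was far above every control library, and library 3 was the lowest of the siMCT4 group. Its mean FPKM went from 1.61 ± 0.454 to 41.3 ± 6.45 (SD, n = 3), and RNASE1 rose 23.6-fold, a log2 change of 4.56 ± 0.221 (SE), the largest of the 8 genes. Without siMCT4 library 3 the log2 change was 4.71.

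Endothelial cells are known for RNASE1, and 2 of the 7 genes of their marker list fell while none rose. CDH5 had no row and CLDN5 did not pass the filter on low counts. Over all tested genes 20.8% fell and 20.6% rose, so the count is a description only. PECAM1 went from 535.9 ± 7.04 to 341.0 ± 5.50 CPM and VWF from 140.5 ± 5.69 to 19.7 ± 2.23 CPM (SD, n = 3). The summed level of the list ran from 664 to 685 CPM in controls and from 356 to 366 CPM in siMCT4. Of its 7 genes, 6 were in the table and 3 (PECAM1, VWF and TEK) exceeded 1 CPM in some library. The other listed genes, CDH5, KDR, CLDN5 and ERG, did not reach 1 CPM in any library or had no row. All libraries came from the THP-1 line, and the part of these marker genes in the RNASE1 values was not tested.

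RNASE6 is a family member that monocytes and macrophages make and that acts against bacteria. RNASE6 (ENSG00000169413, chr14:20781268-20782467, plus strand) had counts of 313, 240 and 227 in the controls, against 968, 1105 and 1117 in the siMCT4 libraries. Its FPKM was 4.93, 4.03 and 3.77 in controls and 17.4, 18.2 and 18.0 in siMCT4. The siMCT4 libraries lay close together and well above the controls, and library 3 did not stand apart for this gene. RNASE6 rose 3.89-fold, with a log2 change of 1.96 ± 0.131 (SE).

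ANG encodes angiogenin, a weak ribonuclease that promotes vessel growth, and RNASE4 encodes an enzyme that prefers to cut RNA after uridine. The 2 genes overlap and share upstream windows. ANG (ENSG00000214274, chr14:20684177-20698971, plus strand) had counts of 77, 61 and 58 in the controls, against 210, 241 and 209 in the siMCT4 libraries, or an FPKM of 0.707, 0.582 and 0.564 against 2.19, 2.31 and 1.96. RNASE4 (ENSG00000258818, chr14:20684560-20701216, plus strand) had counts of 222, 202 and 154 in the controls, against 301, 331 and 324 in the siMCT4 libraries, or 3.31, 3.16 and 2.44 CPM against 4.71, 4.76 and 4.57 CPM. Both genes were higher in all siMCT4 libraries than in any control, and the gap was narrower for RNASE4. ANG rose 3.21-fold, a log2 change of 1.68 ± 0.184 (SE), and RNASE4 rose 1.58-fold, a log2 change of 0.66 ± 0.166 (SE). In the GENCODE v29 annotation the 2 genes share 675 exonic bases, 47.2% of those of ANG, so how counts were split between them is uncertain.

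An RNA on the opposite strand over both genes, EGILA (ENSG00000258451, chr14:20693480-20707120, minus strand), was named after its values were seen. It had counts of 3, 0 and 0 in the controls, against 139, 120 and 106 in the siMCT4 libraries. The summed counts of 3 and 365 gave, scaled by library totals, a ratio of 123 with a 95% exact interval of 41.6 to 597, which covers counting error only. Both mates of a read pair may have been counted, since 60.2% of counts from 2 to 40 were even, and at 2 counts per fragment the ratio was 91.7 with an interval of 25 to 763. EGILA shares 203 exonic bases (22.2% of its own) with ANG and 144 (15.7%) with RNASE4. The library kit marks strand, but the strand setting of the counting is not given in the sources used here, so reads of EGILA and of ANG and RNASE4 cannot be told apart at those bases.

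RNASE2 and RNASE3 encode the eosinophil-derived neurotoxin and the eosinophil cationic protein, granule proteins with antiviral and antibacterial activity. RNASE2, which monocytes also express, was the most abundant of the 6 family genes by counts in controls. RNASE2 (ENSG00000169385, chr14:20955487-20956436, plus strand) had counts of 2218, 2433 and 2590 in the controls, against 2031, 2291 and 1998 in the siMCT4 libraries. Its FPKM was 41.1, 47.9 and 50.5 in controls and 42.7, 44.2 and 37.7 in siMCT4. The FPKM ranges overlap, and the CPM ranges (33.1 to 41.0 against 28.2 to 33.0) are only just apart. The log2 change of RNASE2 was -0.27 ± 0.0984 (SE) and did not pass. It passed in 3 of 17 alternative analyses, which were DESeq2 (-0.26), a correction for GC content (-0.41) and the fit without control library 1 (-0.34).

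RNASE3 (ENSG00000169397, chr14:20891385-20892348, plus strand) was scarce, with counts of 43, 57 and 57 in the controls, against 34, 39 and 48 in the siMCT4 libraries. The ranges overlap, and the log2 change of -0.46 ± 0.277 (SE) did not pass. RNASE2 and RNASE3 transcripts are 88.9% identical over 720 aligned bases, with 67 bases as the longest identical run, so short reads may be split between them. The coding sequences of the pair were 85.3% identical, against 61.7% to 70.8% for the other pairs of the 6 family genes. The related pseudogene RNASE2CP lies between the 2 genes and had counts of 25, 26 and 34 in the controls, against 12, 6 and 11 in the siMCT4 libraries. Its log2 change was -1.61 ± 0.46 (SE; adjusted p = 0.0265, edgeR; 0.00347 to 0.105 over 16 alternatives), and the call was lost in 5 of them. These were the fits without any 1 of the controls or without siMCT4 library 2, and a fit with a replicate block. RNASE2CP was named after its values were seen.

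Markers of eosinophils, a cell type known for both genes, summed to 84.3 to 117 CPM in controls and 32.2 to 45.7 CPM in siMCT4. PRG2 fell, from 97.1 ± 16.6 to 38.2 ± 6.80 CPM (SD, n = 3), and SIGLEC8 rose, from 0 counts in every control to 0.849 ± 0.194 CPM. Of the 6 genes 5 were in the table, and PRG2, CCR3 and SIGLEC8 exceeded 1 CPM in some library. The other listed genes, EPX, PRG3 and CLC, did not, or had no row. The neutrophil precursor list summed to 168 to 173 CPM in controls and 51 to 123 CPM in siMCT4. The part of these marker genes in the values of RNASE2 and RNASE3 was not tested.

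RNASET2 and RNH1, which lie on other chromosomes, had the most counts of the 8 genes in controls. RNASET2 (ENSG00000026297, chr6:166922113-166957184, minus strand) had counts of 7510, 6195 and 6585 in the controls, against 4522, 5311 and 6136 in the siMCT4 libraries, or 112, 96.9 and 104 CPM against 70.8, 76.4 and 86.5 CPM. All siMCT4 values were lower than all control values, with library 3 the closest to the controls. RNASET2 fell to 0.746 of its control level, a log2 change of -0.42 ± 0.0867 (SE). The call was lost in 1 of 17 alternatives, limma on log2(TPM + 1) (-0.21), in which the median of all genes was 0.13 higher. Limma on log2(FPKM + 1) gave -0.26 and kept the call.

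RNH1 (ENSG00000023191, chr11:494512-507259, minus strand) had counts of 6483, 6413 and 6112 in the controls, against 2674, 2408 and 5715 in the siMCT4 libraries. In CPM the levels were 96.7, 100.4 and 96.8 in controls and 41.9, 34.6 and 80.6 in siMCT4. The controls agreed closely, siMCT4 libraries 1 and 2 were far below them, and library 3 lay between. RNH1 fell from 98.0 ± 2.08 to 52.4 ± 24.7 CPM (SD, n = 3), with a log2 change of -0.90 ± 0.284 (SE). Without siMCT4 library 3 it was -1.33, a 2.52-fold fall, in a fit in which 46.5% of genes were called. The GC content of RNH1 transcripts was 62.7%, higher than that of 93.6% of tested genes. In library 3 RNH1 was 1.08 log2 units above the mean of the other siMCT4 libraries, while the other 7 genes, with GC contents of 43.5% to 53.4%, were between -0.41 and 0.29. With a correction for GC content the log2 change of RNH1 was -0.47, which did not pass. The call was lost in 9 of 17 alternatives, including those without any 1 of the controls (-0.91 to -0.87) or without siMCT4 library 1 (-0.74) or 2 (-0.66), and the direction was lower in all 17.

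**Figure D2:**
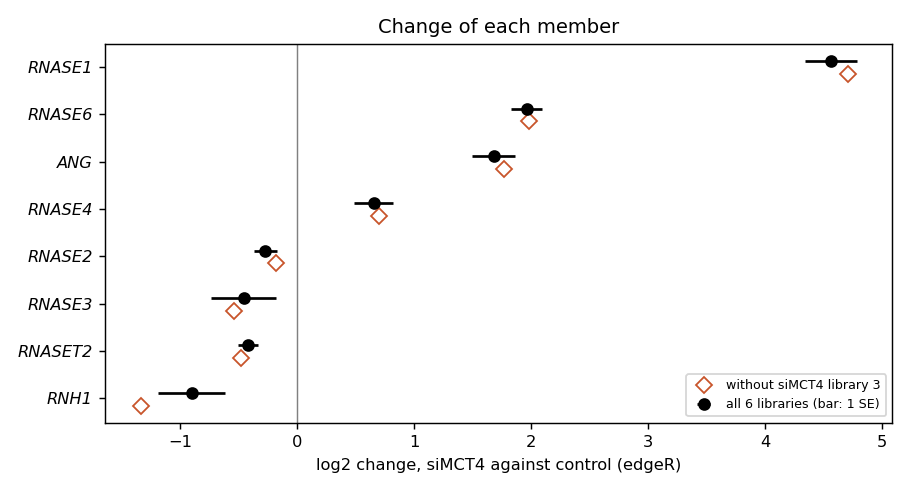
Log2 change of each gene (siMCT4 against control, edgeR) with all 6 libraries (black, bar 1 SE) and without siMCT4 library 3 (open diamonds). RNH1 moves from -0.90 to -1.33 when that library is left out, while RNASE1 goes from 4.56 to 4.71.

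**Figure D3:**
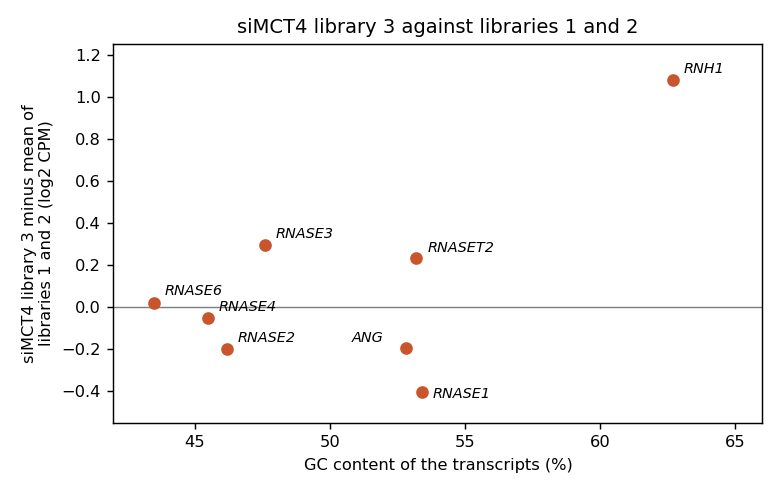
Difference in log2 CPM between siMCT4 library 3 and the mean of siMCT4 libraries 1 and 2, against transcript GC content, with 1 point per gene. RNH1, the most GC-rich of the 8 genes (62.7%), sits at 1.08, and the other 7 lie between -0.41 and 0.29.

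Levels of different genes can be compared only per length, and the length matters here. The deposited FPKM of RNASET2 implies a length of 20900 bases, 16.7 times its median coding transcript in GENCODE v29 (1249 bases), and that of RNH1 implies 7900 bases, 4.59 times its median of 1722. For the other 6 genes the implied length was 0.851 to 1.72 times the median. Levels were therefore also expressed as CPM per kilobase of the median coding transcript, a scale chosen after the data were seen. Comparisons of 1 gene between groups do not depend on this length.

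On that scale, RNASET2 was highest in controls at 83.6 ± 6.04 CPM per kilobase (SD, n = 3). RNH1 followed at 56.9 ± 1.21 and RNASE2 at 49.5 ± 5.30. RNASE6 was at 3.78 ± 0.547, RNASE1 at 2.24 ± 0.638 and RNASE4 at 2.22 ± 0.348, and the last pair overlapped. RNASE3 at 1.13 ± 0.205 and ANG at 1.03 ± 0.126 were lowest and also overlapped. In siMCT4 the order was RNASET2 at 62.4 ± 6.38 CPM per kilobase, RNASE1 at 52.8 ± 8.14, RNASE2 at 41.0 ± 3.30 and RNH1 at 30.4 ± 14.4, and each of these overlapped the next over the 3 libraries. RNASE6 followed at 14.7 ± 0.369, RNASE4 at 3.49 ± 0.0746 and ANG at 3.29 ± 0.269, the last pair overlapping, and RNASE3 was at 0.820 ± 0.106. On this scale RNASE1 overlapped RNASE4 in controls and was above RNASE2 in each siMCT4 library. By deposited FPKM the control order began with RNASE2 (46.5), RNH1 (11.9) and RNASET2 (4.78). In siMCT4 the mean FPKM of RNASE1 (41.3) and RNASE2 (41.5) were near each other. There RNASE1 was below RNASE2 in library 3 (33.9 against 37.7).

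Shares within the summed RNases followed. In CPM per kilobase the 7 RNases summed to 143.5 ± 5.12 in controls and 178.5 ± 6.58 in siMCT4 (SD, n = 3). RNASE1 made up 1.55 ± 0.396% of that sum in controls and 29.5 ± 3.77% in siMCT4, RNASET2 58.2 ± 3.39% and 35.0 ± 4.55%, and RNASE2 34.5 ± 3.60% and 23.0 ± 1.12%. RNASE6 went from 2.63 ± 0.386% to 8.25 ± 0.329%. By deposited FPKM, which gives RNASET2 little weight, the sum went from 60.0 ± 4.27 to 109.6 ± 9.55, the share of RNASE2 from 77.4 ± 2.74% to 37.9 ± 0.283% and that of RNASE1 from 2.67 ± 0.597% to 37.6 ± 2.83%.

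The ratio of RNH1 to the 7 summed RNases, by deposited FPKM, was 0.212, 0.203 and 0.182 in controls and 0.0483, 0.0388 and 0.107 in siMCT4. All siMCT4 ratios were below all control ratios, and library 3 was again nearest to the controls. The means were 0.199 ± 0.0151 and 0.0645 ± 0.0367 (SD, n = 3), a log2 difference of -1.62. Without RNASET2, which is not of the family that RNH1 inhibits, the log2 difference by deposited FPKM was -1.69. In CPM per kilobase the ratio was 0.389, 0.422 and 0.379 in controls and 0.137, 0.109 and 0.272 in siMCT4, a log2 difference of -1.20. On that scale RNASET2 made up 58.2% of the sum in controls and 35.0% in siMCT4. The ratio without RNASET2 was not computed in CPM per kilobase. Without siMCT4 library 3 the mean siMCT4 ratio was 0.0435 by deposited FPKM and 0.123 in CPM per kilobase. The ratio compares transcripts of the genes and not protein, and no test was made of it. It was not computed with the correction for GC content, under which the log2 change of RNH1 was -0.47 in place of -0.90.

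**Figure D4:**
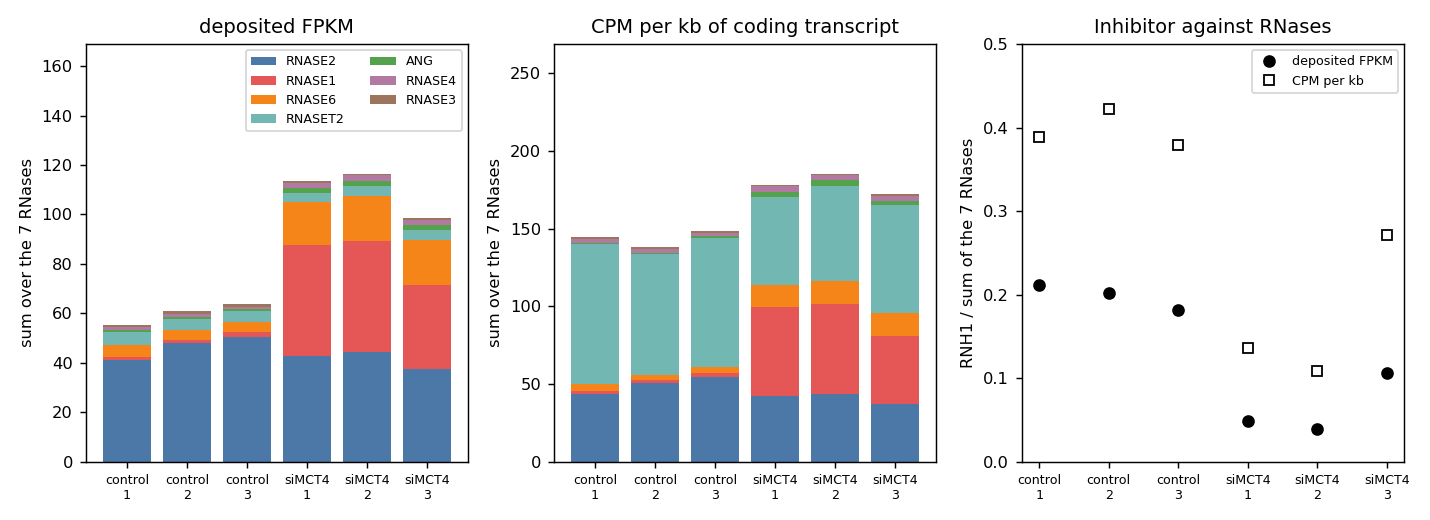
Left and middle, stacked levels of the 7 RNases in each library by deposited FPKM and by CPM per kilobase of the median coding transcript (axes start at 0); right, RNH1 divided by the sum of the RNases on both scales, 1 point per library. The RNASE1 segment is thin in controls and large in siMCT4 on both scales, RNASET2 is visibly larger by CPM per kilobase, and the ratio is lowest in siMCT4 libraries 1 and 2.

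The RNase A genes that passed the filter on low counts and rose lie near each other on chromosome 14. ANG, RNASE4, RNASE6 and RNASE1 lie within 119 kb of each other and all 4 rose. RNASE3, RNASE2CP and RNASE2 begin 88.5 kb beyond RNASE1, and none of these 3 rose. Further on lie RNASE13, RNASE7 and RNASE8, which did not pass the filter. RNASE13 was called higher in a fit with no filter, and the few counts of these genes are given with the rest of the family. From chr14:20446401 to 21104722 the table held 29 genes, of which 19 were tested. Of these, 8 were higher, 1 was lower and 10 did not pass. Over all genes 41.4% were called, 20.6% higher and 20.8% lower. The window was drawn around the chosen genes, and the 8 include ANG, RNASE4, RNASE6, RNASE1 and EGILA, so the count is a description only. On the side of ANG, PNP, a purine salvage enzyme, had a log2 change of 0.30 ± 0.0942 and PIP4P1 0.20 ± 0.0665 (SE; adjusted p = 0.0383 and 0.0432, edgeR). The PNP call was lost in 8 of 17 alternatives. On the side of RNASE2, METTL17 had a log2 change of 0.02 ± 0.0686 and did not pass, while NDRG2 rose by 1.26 ± 0.14 (SE; adjusted p = 0.000353, edgeR). These neighbours were named after their values were seen.

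**Figure D5:**
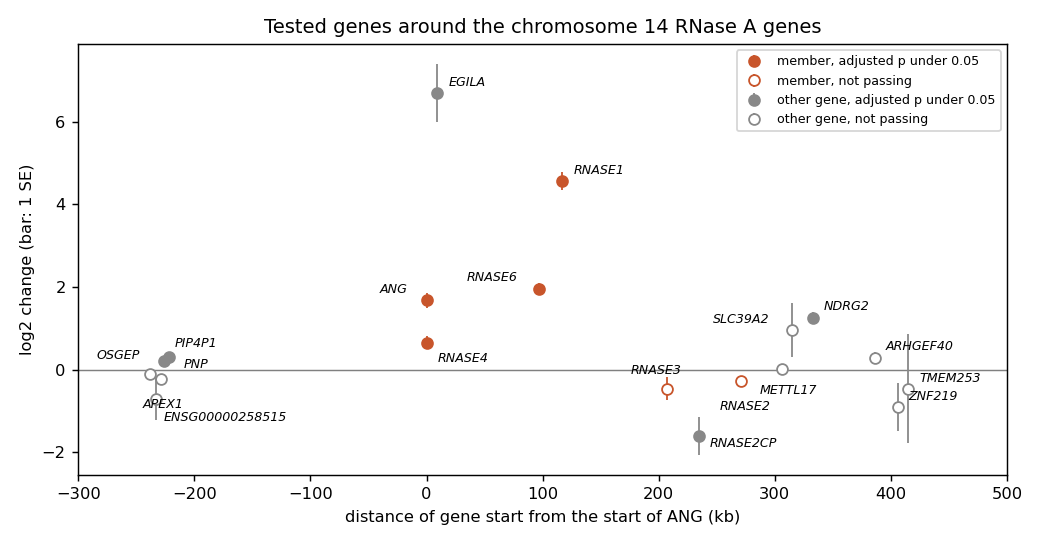
Log2 change (siMCT4 against control, bar 1 SE) of the 19 tested genes around the RNase A genes of chromosome 14, by distance from the start of ANG in kb; filled points passed an adjusted p of 0.05. ANG, RNASE4, RNASE6 and RNASE1 lie between 0 and 117 kb with log2 changes of 0.66 to 4.56, and RNASE3 and RNASE2, at 207 and 271 kb, lie at -0.46 and -0.27.

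Of the 7 other RNase A family genes, RNASE7, RNASE8 and RNASE13 were in the table and none passed the filter on low counts. With no filter, RNASE13 was called higher (adjusted p = 0.0334, edgeR), and RNASE7 and RNASE8 did not pass. RNASE13 was at 0 counts in every control and at 9, 7 and 10 in the siMCT4 libraries. With a floor of 3 counts over the control group, and scaled by library totals, the summed counts gave a ratio of 8.74, or 4.37 at 2 counts per fragment. Counting error of the siMCT4 counts is not included, so these are not lower bounds. RNASE13 lies within the span of TPPP2 on the opposite strand, which had 0 counts over the controls and 12 over the siMCT4 libraries. The strand setting is not given, and bases shared by their exons were not computed. TPPP2 was named after its values were seen. RNASE7 had 4 counts over the controls and 6 over the siMCT4 libraries, and RNASE8 had 5 and 0. All family genes of the list in the table are named, whatever their values.

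Among 16 tested genes of 18 that sense or digest nucleic acids in endolysosomes, where RNASET2 acts, 7 rose, 4 fell and 5 did not pass, with a median log2 change of 0.21. Over all genes 20.6% rose and 20.8% fell, with a median of -0.01. TLR3, a receptor for double-stranded RNA, had counts of 14, 3 and 9 in the controls, against 176, 170 and 191 in the siMCT4 libraries, a log2 change of 4.28 ± 0.425 (SE; adjusted p = 0.000202, edgeR). LGMN, a protease that processes Toll-like receptors, rose from 10.3 ± 1.21 to 30.4 ± 1.27 CPM (SD, n = 3; log2 change 1.56). PLD4, a lysosomal exonuclease for single-stranded nucleic acids, had counts of 2787, 2579 and 2549 in the controls, against 581, 634 and 1737 in the siMCT4 libraries, so library 3 was nearest to the controls. The log2 change of PLD4 was -1.52 ± 0.374 (SE; adjusted p = 0.0145, edgeR; 2.35e-07 to 0.0507 over 17 alternatives). It was -2.14 without siMCT4 library 3 and -1.14 with the correction for GC content, and the call was lost without control library 1. The single-stranded RNA receptors TLR7 and TLR8, named after their values were seen, did not pass the filter on low counts.

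Of 19 tested intracellular ribonucleases from a list of 20, 9 rose, 4 fell and 6 did not pass, with a median log2 change of 0.21, against 20.6% and 20.8% of all genes. The largest were RNASEH2A (-1.30 ± 0.257), the catalytic subunit of RNase H2, N4BP1 (0.87 ± 0.0945), an RNase that restrains inflammatory signalling, and PNPT1 (0.85 ± 0.0504), a mitochondrial exoribonuclease (SE; adjusted p = 0.00551, 0.000316 and 1.67e-05, edgeR). Without siMCT4 library 3 RNASEH2A was at -1.59. With limma on log2 FPKM or TPM 1 gene of the list was lower in place of 4.

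The receptors and binding partners described for angiogenin numbered 4. PLXNB2, a plexin that binds angiogenin, fell from 402.5 ± 20.7 to 187.4 ± 56.5 CPM (SD, n = 3; log2 change -1.10, adjusted p = 0.00274, edgeR). Its counts in siMCT4 were 10316, 10317 and 17884, with library 3 the highest. With the correction for GC content the log2 change of PLXNB2 was -0.655. SDC4 rose by 0.24 ± 0.0803 (SE; adjusted p = 0.0443, edgeR; 0.00241 to 0.141 over 17 alternatives), and that call was lost in 8 of them. SDC1 did not pass, at -0.16. EGFR, which did not pass the filter, had 0 counts in the 3 controls. Its counts were 390 in siMCT4 library 1, 371 in library 2 and 0 in library 3. It was called higher in the fit without library 3 (adjusted p = 9.71e-06, edgeR), and in the 4 other fits that kept it, it did not pass (0.0779 to 0.0910). EGFR and SDC1 were named after their values were seen.

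Of 10 tested secreted antimicrobial proteins of myeloid cells, from a list of 15, 1 rose, 4 fell and 5 did not pass, with a median log2 change of -0.49. That 5 of 10 were called is near the 41.4% over all genes. BPI, which kills Gram-negative bacteria, rose from 8.05 ± 1.61 to 32.3 ± 0.918 CPM (SD, n = 3; log2 change 2.00, adjusted p = 4.45e-05, edgeR). CHIT1, the macrophage chitinase, fell from 641.6 ± 23.7 to 354.4 ± 26.4 CPM, a log2 change of -0.86. AZU1, azurocidin, had a log2 change of -1.18 ± 0.319 (SE; adjusted p = 0.0212, edgeR; 2.07e-05 to 0.0793 over 17 alternatives), -1.66 without siMCT4 library 3 and -0.58 with the correction for GC content. The AZU1 call was lost in 4 alternatives that left out 1 library each, namely any control or siMCT4 library 1. The number of the list's genes called lower was 4 with all libraries, 1 without control library 3, 2 without control library 1 or 2, and 6 without siMCT4 library 3.

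The genes most alike in pattern were found as the smallest Euclidean distance between centred log2 CPM values over the 6 libraries, among 13432 tested genes with a mean of at least 1 CPM. This measure uses the difference between groups and describes only a shared profile. RNASE1 was nearest to IFI27, an interferon-induced gene (distance 0.359, log2 change 4.80), and KCNK3, a potassium channel (0.504, 4.79). RNASE6 was nearest to EML5 (0.178) and NUDT16L2P (0.181), and ANG to ITGA5, an integrin subunit (0.203), and LINC00649 (0.211). RNASE4 was nearest to SMG8 (0.173) and ALKBH1 (0.188), and RNASET2 to PPP1R12A (0.0844) and TSHZ1 (0.0876). RNH1 was nearest to ZDHHC8 (0.133, log2 change -0.93) and RAB11B (0.135, -0.86). RNASE2 and RNASE3, which did not pass, were not searched for nearest genes.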

How the data were processed

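Polyadenylated RNA of 3 control and 3 MCT4-deficient libraries was prepared with dUTP strand marking and read from both ends, per the labels' protocols. The tools cutadapt 1.9 and HISAT2 2.2.1 and the build GRCh38 are named in the submitters' processing notes. For the counting tool, annotation and strand setting: not given in the sources used here. The authors deposited raw whole-number counts and FPKM for each gene and library, per the file headers.

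Counts were tested with edgeR 4.0.16 (R 4.3.3; quasi-likelihood, TMM scaling, two-sided, Benjamini-Hochberg adjustment over all tested genes). The filter filterByExpr (minimum count 10, minimum total 15) kept 19944 genes, and calls were made at an adjusted p below 0.05. SE values are log2 changes over the root of the test's F statistic. The common biological coefficient of variation was 0.219. Alternatives were DESeq2 1.42.0, limma 3.58.1 on log2 FPKM (pseudocounts 1 and 0.1) and TPM, other scalings and filters, a GC correction, a replicate block and leaving out each library. The test scripts were tested on simulated data.

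The genes and lists were chosen with earlier results of these data known. Named genes are the 8 genes, SLC16A3, up to 3 called genes of largest change per list, and the 2 nearest in pattern to each called gene; the other genes are listed genes or neighbours named outside this rule. The 12 columns of the table were all used. GC content and transcript lengths come from GENCODE v29.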

Additional observations from a re-analysis of the deposited data

How the results depend on the processing

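The number of the 8 genes called was 6 with all libraries and 4 to 6 over 17 alternatives. RNASE1, RNASE6, ANG and RNASE4 were called higher in all 17, with log2 changes of 4.01 to 4.82, 1.80 to 2.11, 0.93 to 1.80 and 0.45 to 0.75. RNASE2 was called in 3, RNASE3 in 0 of 16, RNASET2 in 16 and RNH1 in 8, and no direction reversed. Of the genes called in the whole table, 4116 were higher and 4144 lower. With limma on log2(TPM + 1) these were 6245 and 2886, so 68.4% of calls were higher in place of 49.8%, with a shift of 0.13 in the median of all genes. Leaving out 1 library gave 3409 to 4894 higher and 3160 to 4814 lower. By deposited FPKM, the log2 difference in the ratio of RNH1 to the RNases ranged from -2.19 (without siMCT4 library 3) to -1.36 when 1 library was left out. It was -1.69 without RNASET2, also by deposited FPKM. With RNASET2 kept, it was -1.20 in CPM per kilobase, a scale chosen after the data were seen. The ratio was not computed with the GC correction. Libraries with the same number did not deviate together from their group means (correlations of -0.0616, -0.00295 and -0.0547). With 3 libraries per group this cannot settle whether the samples were paired, and the labels do not say. With a replicate block 3341 genes were higher and 3580 lower, and 6 of the 8 genes were called. The counts of RNASE3, RNASE2CP and RNASE13 are few. The cause of the differences between settings was not tested.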
